A study of Mus musculus with 9 samples.

Results

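The genes described here encode the respiratory chain and ATP synthase of mitochondria. They were chosen by symbol, as every row starting with Nduf, Uqcr, Atp5, Sdha, Sdhb, Sdhc, Sdhd, Cox4, Cox5, Cox6, Cox7, Cox8 or mt-, with pseudogene symbols (-ps) left out. The rule found 110 of the 22017 genes listed, and none was left out as a pseudogene. Of these, 97 are encoded in the nucleus and 13 in the mitochondrial genome. The nuclear genes comprise 36 of complex I (NADH dehydrogenase), 4 of complex II (succinate dehydrogenase), 8 of complex III (ubiquinol-cytochrome c reductase), 20 of complex IV (cytochrome c oxidase, with Ndufa4 and Ndufa4l2 counted there) and 16 of complex V (ATP synthase). The other 13 are assembly or coupling factors named Ndufaf, Sdhaf or Atp5s. The mt- genes are all protein-coding, and the mitochondrial ribosomal and transfer RNAs were not analysed here.

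The respiratory chain passes electrons from NADH and succinate through complexes I to IV to oxygen, and the proton gradient that this builds drives ATP synthase. Complexes I, III, IV and V are mosaics: their mt- subunits are transcribed inside the mitochondrion from long polycistronic precursors, while the other subunits and all of complex II come from nuclear genes and are imported. Activated T cells make ATP both by glycolysis and by respiration, and T helper subsets are known to differ in the balance of these routes.

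RNA was sequenced from 9 mouse T cell cultures, 3 libraries in each of 3 groups. All groups were wild-type (WT) T cells from C57BL/6 spleen, activated for 3 days with anti-CD3 and anti-CD28, given IL-2 (100 U/mL) from day 5, stimulated again with anti-CD3, anti-CD28 and IL-2 on day 7 and harvested on day 10. The labels give no age and do not say whether the 3 libraries of a group came from separate mice or cultures, so a p-value here measures the spread between these libraries, which may be technical. Each library is bulk RNA, in which fewer cells of a kind and less RNA per cell cannot be told apart.

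Th1 cells were grown in both phases with IL-12 (10 ng/mL) and anti-IL-4. Th17 cells were grown in both phases with TGF-b (1 ng/mL), IL-6 (20 ng/mL), IL-1b (10 ng/mL), anti-IFN-g, anti-IL-12 and anti-IL-4. Th17-1 cells, which are Th17-derived Th1 cells, had the Th17 condition first and the Th1 condition from day 7. The 3 comparisons were Th1 against Th17 and Th17-1 against each of the others. They share libraries pairwise, so they are not independent of each other.

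Levels are FPKM, fragment counts scaled for transcript length and for the mapped fragments of the library. Genes that reached 1 FPKM in 3 or more libraries were tested with limma, a linear model that shares information on the spread across genes, on log2(FPKM + 1), with two-sided p-values adjusted by the Benjamini-Hochberg method over all 10538 genes tested. A gene is called higher or lower where the adjusted p was below 0.05. Differences are on the log2(FPKM + 1) scale, which understates the change of low genes, and folds are derived from that scale. Of the 110 genes, 102 were tested. The 8 that were not are Cox4i2, Cox6a2, Cox7a1, Cox7b2, Cox8b, Cox8c, Ndufa4l2 and Sdhaf3, mostly isoforms known from other tissues. Their highest single value was 1.42 FPKM (Cox7a1, Th1 replicate 1), and Cox7b2 and Ndufa4l2 were listed at 0 in every library.

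The 9 tables summed to between 382581 and 405985 FPKM, and mt- genes made up 5.14% to 7.11% of that sum. All 7 T cell markers (Cd3e, Cd3d, Cd3g, Cd247, Cd2, Cd5 and Lck) were present, with summed levels of 969 to 1214 FPKM. Cd8a and Cd8b1 together reached 170 FPKM in Th1, 152 in Th17-1 and 203 in Th17, each time in replicate 3, against 19.8 to 79.0 FPKM in replicates 1 and 2. All fits were therefore recomputed without replicate 3 of each group. The sums, their ratio, the correlations and the motif counts were not. Cd4 was at 52.9 to 124 FPKM. Of 4 neutrophil markers, S100a8, S100a9 and Csf3r were at 0 in every library, while Ly6g was at 2.25 to 3.05 FPKM in Th1, 9.38 to 34.7 FPKM in Th17-1 and 0.0761 to 0.711 FPKM in Th17. Of 4 dendritic cell markers, Flt3 and Siglech were at 0, and the list summed to 3.39 to 6.11, 1.84 to 4.16 and 1.03 to 2.09 FPKM in the same order. The 4 muscle markers, whose tissue uses its own cytochrome oxidase isoforms, summed to at most 0.526 FPKM. The summed levels of the macrophage list (1 of 5 genes above 1 FPKM, Cd68) were 3.71 to 11.8 FPKM in Th1, 3.62 to 6.84 in Th17-1 and 1.42 to 2.92 in Th17. The NK list (2 of 4 genes above 1 FPKM) summed to 3.23 to 7.12, 1.76 to 6.44 and 7.31 to 17.7 FPKM in the same order, and the B cell list (2 of 4) to 0.844 to 2.08, 1.17 to 2.38 and 2.95 to 4.01. Their part in the results was not tested.

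Between Th1 and Th17 cells single subunits were called, more of them nuclear genes of complex IV than of any other class. Whether the chain shifted as a block was not tested. Of the 102 genes tested, 8 were higher in Th1 and 8 lower, or 15.7%, where 42.9% of all genes tested were called, 14.0% higher and 28.9% lower. Called higher were Cox5a, Cox6b2, Cox7a2, Cox8a, Cox5b and Cox4i1 of complex IV, Atp5d of complex V and Ndufv3 of complex I. Called lower were Sdha of complex II, Cox7a2l of complex IV, Ndufv1, Ndufs3, Ndufa10 and Ndufb5 of complex I, and the assembly factors Ndufaf4 and Ndufaf1. None of the 8 nuclear complex III genes that the rule holds and none of the 13 mt- genes was called.

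The size of these counts depended on scaling and on single libraries. With libraries scaled by the median ratio over genes, which moves the median difference of all genes from -0.17 to -0.01, 30 genes were higher and 2 lower. With libraries scaled to equal sums the counts were 6 and 14. Without Th1 replicate 2 they were 6 and 20, and without Th1 replicate 1 they were 13 and 3. The lower calls numbered 3 without Th1 replicate 3, 3 without Th17 replicate 1, 2 without Th17 replicate 2 and 5 without Th17 replicate 3. Cox5a, Cox7a2 and Sdha kept their calls under each of the 12 alternative settings and without each library in turn, and so did Cox6b2 under the 11 settings in which it could be tested. Cox6b2 passed the filter only through its Th1 libraries. With replicates 1 and 2 only, 9 of the 16 calls were lost: Cox5b, Cox4i1, Ndufv3, Ndufv1, Ndufs3, Ndufb5, Ndufa10, Ndufaf1 and Ndufaf4.

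**Figure D1:**
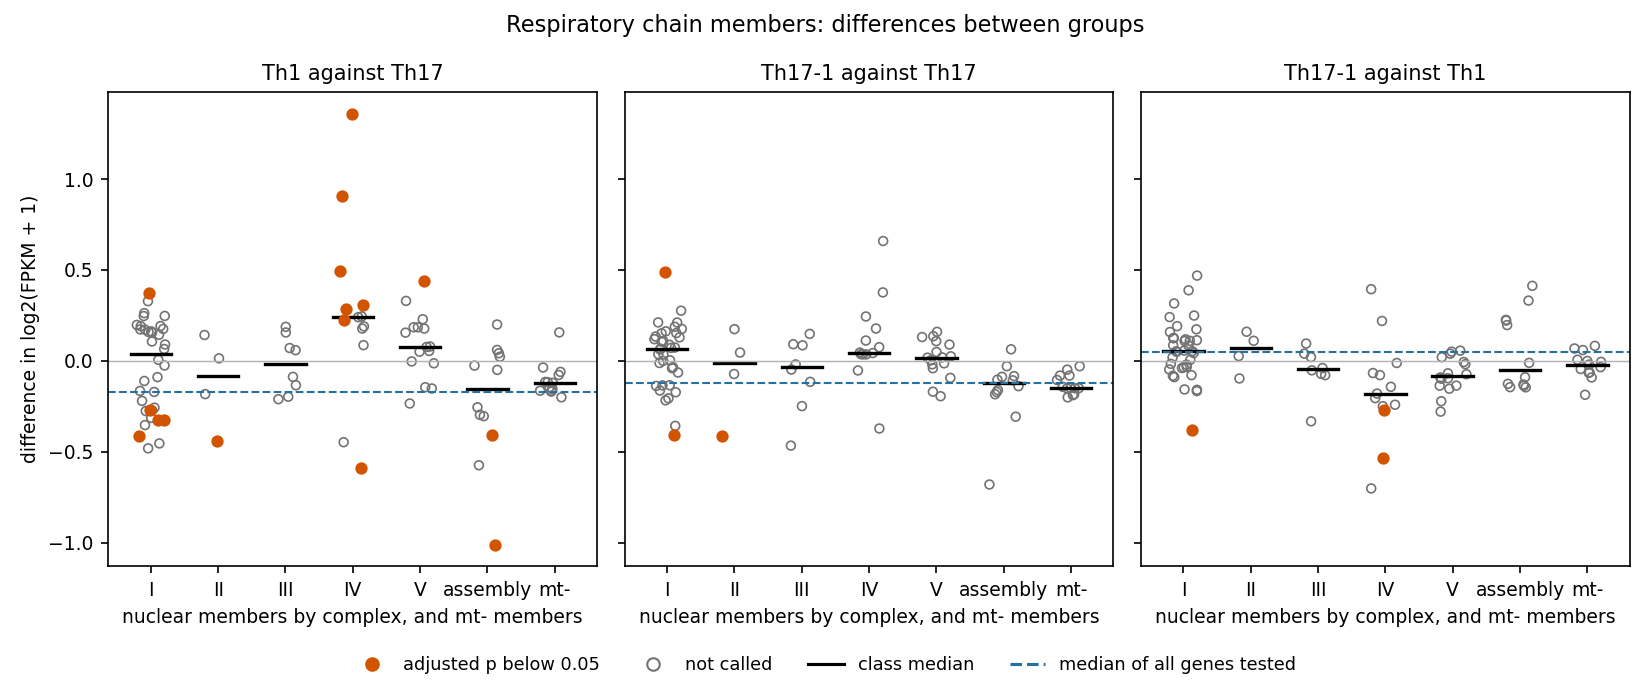
Each point is 1 gene, placed by complex on the horizontal axis and by its difference in log2(FPKM + 1) on the vertical axis, with 1 panel per comparison. Filled points passed limma at an adjusted p below 0.05, black bars are class medians and the dashed line is the median of all genes tested, which is -0.17 for Th1 against Th17, and complex IV holds 7 of the 16 filled points in that panel.

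Complex IV takes electrons from cytochrome c and hands them to oxygen. Cox5a, a subunit at its matrix face, stood at 279, 341 and 319 FPKM in Th1 replicates 1 to 3, at 214, 212 and 221 FPKM in Th17-1 and at 152, 153 and 195 FPKM in Th17. The 3 groups did not overlap, and every Th17-1 library lay between the other groups. The Th1 mean of 313 ± 31.1 FPKM (SD, n = 3) was 1.88-fold above the Th17 mean of 167 ± 24.6 FPKM (log2 difference 0.91, SE 0.11, limma adjusted p = 0.000512). Th17-1 cells were lower than Th1 (log2 difference -0.53, adjusted p = 0.0216) and had a log2 difference of 0.38 from Th17 that missed the threshold (adjusted p = 0.0547). The call against Th1 was lost with replicates 1 and 2 only and without Th1 replicate 3, Th17-1 replicate 1 or Th17-1 replicate 2, with adjusted p up to 0.0895.

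Cox7a2, the isoform of subunit VIIa used outside heart and muscle, stood at 94.2, 111 and 92.7 FPKM in Th1, 88.5, 84.8 and 76.4 FPKM in Th17-1 and 72.6, 62.9 and 75.0 FPKM in Th17. Again the groups formed 3 steps without overlap, with Th17-1 in the middle. Only the difference between the ends was called (1.41-fold, log2 0.49, SE 0.11, limma adjusted p = 0.0063), as Th17-1 had log2 differences of 0.24 from Th17 (adjusted p = 0.146) and -0.25 from Th1 (adjusted p = 0.177).

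Cox8a, the small subunit VIII of most tissues, was at 235, 250 and 252 FPKM in Th1, 200, 199 and 212 FPKM in Th17-1 and 192, 198 and 205 FPKM in Th17. Here Th17-1 overlapped Th17, and Th1 stood above both. Th1 exceeded Th17 by 0.31 (adjusted p = 0.00859) and Th17-1 was lower than Th1 by a log2 difference of -0.27 (adjusted p = 0.044). The first call was lost under quantile scaling (0.04, adjusted p = 0.685). The second was lost in 6 of the 12 settings and without any 1 Th1 replicate, Th17-1 replicate 1 or 2, or Th17 replicate 1 or 2, with adjusted p up to 0.173.

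Cox6b2, an isoform of subunit VIb known from testis, was the lowest complex IV gene tested and had the largest log2 difference of any member. It stood at 2.62, 1.45 and 3.77 FPKM in Th1, 1.58, 0.914 and 0.993 FPKM in Th17-1 and 0.246, 0.454 and 0.380 FPKM in Th17. Th1 and Th17 did not overlap (log2 difference 1.36, SE 0.23, adjusted p = 0.00219). Only the Th1 libraries and Th17-1 replicate 1 reached 1 FPKM. Cox6b2 was thus tested only through the group where it is high, and its call is not separate support. Its broadly used counterpart Cox6b1 was more abundant, at 75.8 to 91.7 FPKM over the libraries, and was not called (log2 difference 0.09, adjusted p = 0.462).

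Cox5b and Cox4i1, core nuclear subunits that pair with the mitochondrially encoded centre of the enzyme, had smaller differences. Cox5b was at 89.7, 102 and 95.9 FPKM in Th1 and 87.6, 73.6 and 75.1 FPKM in Th17 (log2 difference 0.28, adjusted p = 0.0346). Cox4i1, the subunit IV isoform of most tissues, was at 297, 336 and 321 FPKM in Th1 and 269, 272 and 274 FPKM in Th17 (log2 difference 0.23, adjusted p = 0.0314), and its difference turned to -0.02 under quantile scaling. Each of these calls was lost in 6 of the 12 settings. Both were lost without Th1 replicate 2 or 3, Th17-1 replicate 1 or 2, or Th17 replicate 2, Cox4i1 also without Th17 replicate 1 and Cox5b also without Th17 replicate 3. Cox4i1 overlaps Emc8 on the other strand.

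Cox7a2l went the other way. Its levels were 149, 107 and 151 FPKM in Th1, 147, 145 and 178 FPKM in Th17-1 and 222, 223 and 168 FPKM in Th17. Every Th1 library lay below every Th17 library, although Th17 replicate 3 came close (log2 difference -0.59, SE 0.17, adjusted p = 0.0192). The call was lost under median ratio scaling and without Th17 replicate 1 or replicate 2, with adjusted p up to 0.108. Of the remaining complex IV genes tested, Cox6a1, Cox6b1, Cox6c, Cox7b and Cox7c had log2 differences between 0.09 and 0.24, and Ndufa4 had -0.45 (adjusted p = 0.0813), with none called.

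As a class, 7 of the 13 complex IV genes tested were called in Th1 against Th17, 6 of them higher. Over all genes tested, 42.9% were called, 14.0% higher and 28.9% lower. The median difference of the class was 0.24, or 0.41 above that of all genes. Scaling each library by a constant moves the class and all genes nearly alike, so the equal-sum and median ratio scalings could not test that distance (0.40 to 0.43). Under quantile scaling it was 0.13. The number called higher was 3 under quantile and 11 under median ratio scaling. With a filter of 5 FPKM, which leaves out Cox6b2, 5 of 12 were higher and the median was 0.23. The summed nuclear complex IV level was 1704, 1951 and 1874 FPKM in Th1, 1658, 1612 and 1612 FPKM in Th17-1 and 1570, 1570 and 1556 FPKM in Th17. The Th1 libraries lay above all others, and those of Th17-1 lay above those of Th17 by a narrow margin.

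**Figure D2:**
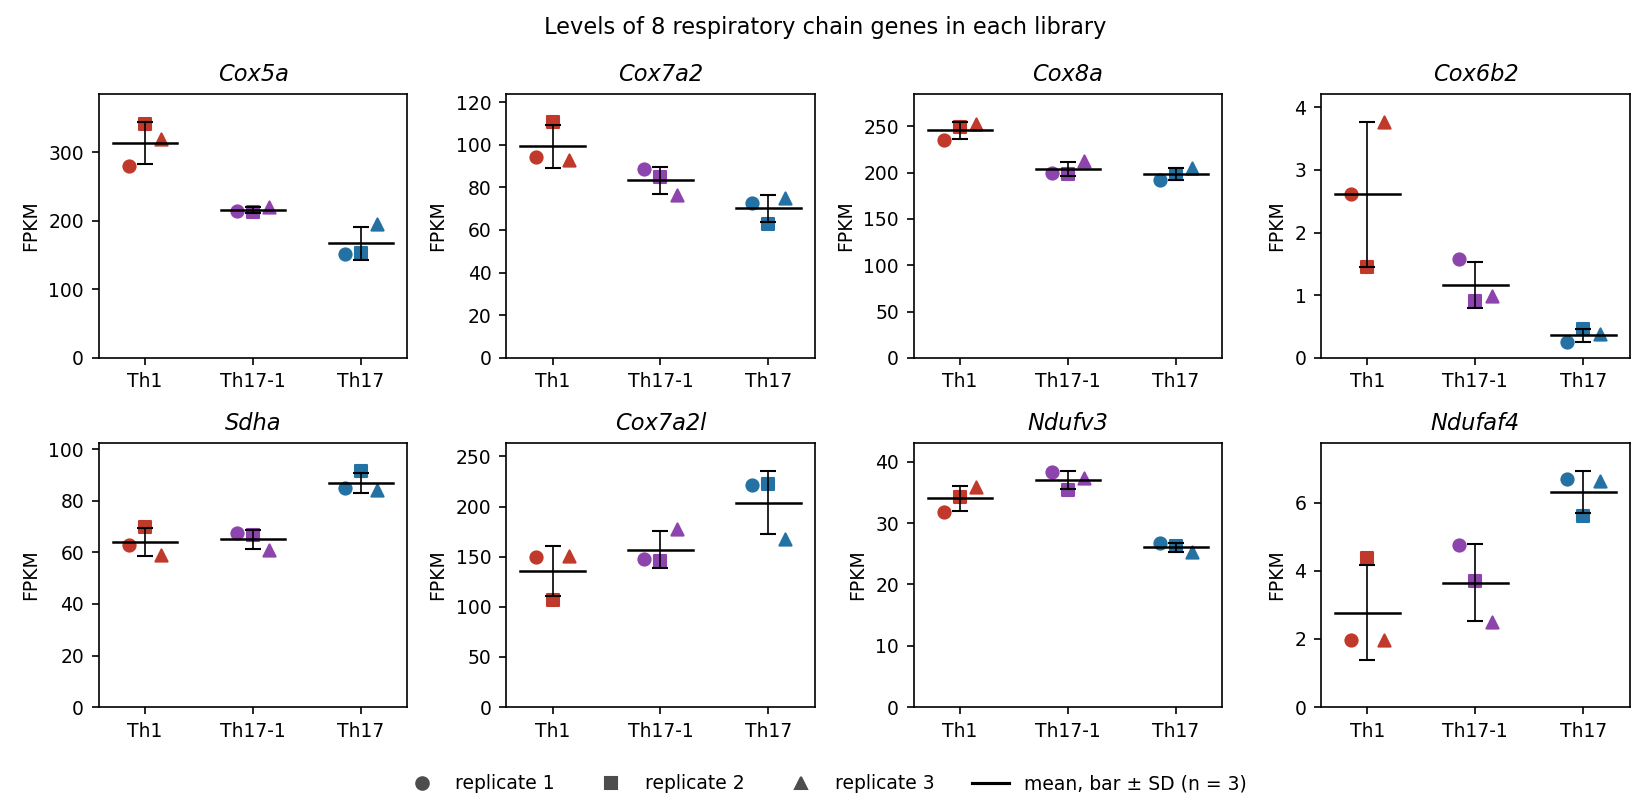
FPKM of 8 genes on the vertical axis in each library, with groups on the horizontal axis, horizontal bars for group means and error bars for the SD of 3 libraries. Cox5a and Cox7a2 fall in 3 steps from Th1 through Th17-1 to Th17, whereas for Sdha and Ndufv3 the Th17-1 libraries sit with those of Th1.

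Complex I is the entry point for electrons from NADH. Of its 36 nuclear genes, 1 was higher and 4 were lower in Th1 than in Th17, where 14.0% of all genes tested were higher and 28.9% lower. The higher gene, Ndufv3, encodes an accessory subunit of the NADH-oxidising flavoprotein module. It was at 31.8, 34.3 and 35.9 FPKM in Th1, 38.3, 35.4 and 37.3 FPKM in Th17-1 and 26.7, 26.3 and 25.2 FPKM in Th17. Th1 and Th17-1 overlapped each other, and both lay above Th17. The log2 difference was 0.37 for Th1 (adjusted p = 0.00641) and 0.49 for Th17-1 (1.40-fold, SE 0.08, adjusted p = 0.00441), both measured against the same Th17 libraries. The Th17-1 call was kept under each setting and each left-out library, and the Th1 call was lost with replicates 1 and 2 only (adjusted p = 0.071).

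The lower complex I genes had log2 differences between -0.27 and -0.41. Ndufv1, which carries the NADH-binding site, was at 29.3, 40.4 and 31.6 FPKM in Th1 and 41.5, 43.3 and 49.98 FPKM in Th17, close but without overlap (log2 difference -0.41, adjusted p = 0.0329). Ndufs3, a core subunit of the arm that carries electrons to ubiquinone, had a difference of -0.33 (adjusted p = 0.0445), and Ndufb5, a membrane-arm accessory subunit, -0.27 (adjusted p = 0.0312). Ndufa10, another accessory subunit, was at 37.2, 46.1 and 38.7 FPKM in Th1, 37.8, 38.1 and 38.8 FPKM in Th17-1 and 48.4, 52.2 and 52.3 FPKM in Th17. It was lower in Th1 and in Th17-1 than in Th17 (log2 differences -0.32, adjusted p = 0.0225, and -0.41, adjusted p = 0.0212). The Th1 calls of Ndufv1, Ndufb5 and Ndufa10 against Th17 were lost in 3 of the 12 settings, among them median ratio scaling, and that of Ndufs3 in 6, with adjusted p up to 0.255 for Ndufs3. The calls of Ndufv1, Ndufs3 and Ndufb5 were lost without Th1 replicate 1 or 3 or any 1 Th17 replicate, that of Ndufs3 also without Th17-1 replicate 2, and that of Ndufa10 without Th1 replicate 1 or 3 or Th17 replicate 2 or 3. The Th17-1 call of Ndufa10 was lost under median ratio scaling, with replicates 1 and 2 only, and without Th17-1 replicate 1 or 2 or Th17 replicate 1 or 2, with adjusted p up to 0.112. Th1 replicate 2 was the highest Th1 library for Ndufv1, Ndufs3, Ndufa10 and Ndufb5 alike, and without it 11 complex I genes were lower, against 0 without Th1 replicate 1, 0 without Th1 replicate 3, 1 without Th17 replicate 1 and 0 without Th17 replicate 2 or 3. Under median ratio scaling 9 complex I genes were higher and 0 lower.

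The core subunit Ndufs1 and the accessory subunit Ndufa9 had log2 differences of -0.22 (adjusted p = 0.186) and -0.31 (adjusted p = 0.0802) and were not called. Assembly factors help to build the complexes. Of the 12 assembly and coupling genes tested, 2 were lower, both Ndufaf factors of complex I, where 28.9% of all genes tested were lower. Ndufaf4 was at 1.97, 4.37 and 1.97 FPKM in Th1, 4.75, 3.70 and 2.50 FPKM in Th17-1 and 6.70, 5.603 and 6.63 FPKM in Th17. Th1 and Th17 did not overlap, and the log2 difference was -1.01 (SE 0.25, adjusted p = 0.012), lost with replicates 1 and 2 only (adjusted p = 0.0771). Ndufaf1 had a difference of -0.40 (adjusted p = 0.0442), a call that was lost in 6 of the 12 settings and kept without 2 of the 9 libraries, Th1 replicate 2 and Th17-1 replicate 3.

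Complex II links the citric acid cycle to the chain and has no mitochondrially encoded subunit. Its flavoprotein subunit, Sdha, which oxidises succinate, was at 63.0, 69.9 and 59.0 FPKM in Th1, 67.6, 66.7 and 61.0 FPKM in Th17-1 and 85.0, 91.6 and 84.3 FPKM in Th17. The Th1 and Th17-1 libraries overlapped, and all 6 lay below the 3 Th17 libraries. The means were 64.0 ± 5.51, 65.1 ± 3.60 and 87.0 ± 4.02 FPKM (SD, n = 3 each). Sdha was lower in Th1 (log2 difference -0.44, SE 0.09, adjusted p = 0.00481) and in Th17-1 (-0.41, adjusted p = 0.0152) than in Th17. The Th17-1 call was lost with replicates 1 and 2 only and without Th17-1 replicate 3, Th17 replicate 1 or Th17 replicate 2, with adjusted p up to 0.0783 over all alternatives.

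Sdhb, Sdhc and Sdhd, its iron-sulfur and membrane-anchor partners, were not called in any comparison. Their log2 differences between Th1 and Th17 were 0.01, -0.18 and 0.14 (adjusted p = 0.929, 0.188 and 0.296). Sdhb thus stood at 75.9, 89.4 and 76.3 FPKM in Th1 and 75.1, 73.7 and 90.7 FPKM in Th17, with full overlap.

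Complex III moves electrons from ubiquinol to cytochrome c. The 8 nuclear genes that the rule holds had log2 differences from -0.21 (Uqcrc2, a core subunit) to 0.19 (Uqcrq) between Th1 and Th17. None was called, where 42.9% of all genes tested were. None had an unadjusted p below 0.05, and none was without overlap between the groups, but neither share was computed over all genes. Cyc1, a further nuclear subunit outside the rule, was called lower in Th1 (-0.52, limma adjusted p = 0.0313), with the limits of that call given below. Uqcrc1, Uqcrfs1 (the Rieske iron-sulfur protein) and Uqcrh had differences of -0.20, 0.06 and -0.09. Without Th1 replicate 2 there were 2 lower calls, and under median ratio scaling 1 higher.

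In complex V, 1 of 16 genes was called, where 42.9% of all genes tested were called. Atp5d, the delta subunit of the rotating stalk, was at 204, 234 and 213 FPKM in Th1, 172, 195 and 169 FPKM in Th17-1 and 135, 168 and 178 FPKM in Th17. Th1 lay above both other groups, which overlapped each other. The difference from Th17 was 0.44 (SE 0.12, adjusted p = 0.0152), lost under quantile scaling (adjusted p = 0.201) and without Th17 replicate 1. Atp5d overlaps Cbarp on the other strand over 2204 bases, and whether the authors counted by strand is not given in the sources used here. Atp5b, the catalytic subunit and the most abundant nuclear member with a mean of 412 FPKM, had a difference of -0.01 (adjusted p = 0.954), and Atp5c1 one of 0.05 (adjusted p = 0.608). Atp5a1, the other large subunit of the catalytic head, had -0.23 (adjusted p = 0.112). The 3 genes for the c-ring subunit, Atp5g1, Atp5g2 and Atp5g3, had 0.08, -0.14 and 0.19. Atp5g1 was the least precise member, between 15.9 and 50.5 FPKM over the libraries with an SE of 0.44.

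Th17-1 cells, moved from the Th17 to the Th1 condition on day 7, differed from Th17 in 3 of 102 genes, or 2.94%. Among all genes tested 15.9% were called, 6.43% higher and 9.49% lower. Ndufv3 was higher, and Sdha and Ndufa10 were lower, with the values given above. At an unadjusted p below 0.05 there were 4 higher and 7 lower genes. The share of all genes at that unadjusted threshold was not computed, so these counts cannot be told from background. Without Th17 replicate 1 or Th17 replicate 2 no gene was called lower, without any 1 of the Th17-1 replicates 1 was, and without Th1 replicate 2, which enters through the shared spread, 5 were. The counts of higher genes were 3 without Th1 replicate 2 and 2 without Th17 replicate 3.

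Against Th1, Th17-1 cells had 0 higher and 3 lower genes of 102. Among all genes tested 10.5% were called, 5.67% higher and 4.81% lower. By limma with no adjustment, 0 were higher and 8 lower at p below 0.05, again with no share of all genes computed. No alternative setting called any higher, while leaving out Th1 replicate 2 called 2. The lower genes included Cox5a and Cox8a, given above. Of the 3 lower genes, leaving out Th1 replicate 3, Th17-1 replicate 1 or Th17-1 replicate 2 left 0 called, leaving out Th1 replicate 1 left 1, and replicates 1 and 2 only left 0.

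Of the 13 mt- genes, 12 had means above that of every nuclear member, and the exception, mt-Nd3, was below 7 of them. The means ran from 190 FPKM for mt-Nd3 to 5734 FPKM for mt-Co1, the catalytic subunit of complex IV. The median nuclear complex IV gene tested had a mean of 85.2 FPKM. FPKM are scaled for length, but mt- genes have nuclear copies and the treatment of reads with several matches is unknown. The comparison of mt- with nuclear levels is uncertain to that extent. None of the 13 was called in any comparison by limma, and none had an unadjusted p below 0.05. The share of all genes at that unadjusted threshold was not computed. Between Th1 and Th17, 12 of 13 had a difference below 0, from -0.20 (mt-Nd6) to -0.04 (mt-Nd3), and mt-Cytb, the only mitochondrially encoded subunit of complex III, had 0.16 (adjusted p = 0.18). The median was -0.12, near the -0.17 of all genes, and it became 0.05 under median ratio scaling and -0.27 under quantile scaling. It was -0.016 without Th17 replicate 1 and -0.24 without Th17 replicate 3. The complex I subunits mt-Nd1, mt-Nd2, mt-Nd4 and mt-Nd4l had differences of -0.14, -0.06, -0.08 and -0.12, with overlap between the groups for each. Median ratio scaling called mt-Cytb higher, quantile scaling called mt-Atp6, mt-Co3 and mt-Nd6 lower, and leaving out Th17 replicate 3 called mt-Nd5 and mt-Nd6 lower. For Th17-1 the medians were -0.15 against Th17, which was -0.018 without Th17 replicate 1 and -0.26 without Th17 replicate 3, and -0.02 against Th1, which was 0.011 without Th1 replicate 3 and -0.085 without Th17-1 replicate 3. Without Th17 replicate 3, mt-Nd6 was called lower in Th17-1 than in Th17.

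The summed mt- level was 22219, 20849 and 22868 FPKM in Th1, 20759, 20128 and 24769 FPKM in Th17-1, and 27211, 23646 and 20611 FPKM in Th17. The groups overlapped, and the Th17 libraries were the most widely spread. Replicate 1 was the highest Th17 library for all 13 mt- genes. The same sum over nuclear subunits ranged only from 5674 FPKM (Th17-1 replicate 3) to 7015 FPKM (Th1 replicate 2). The ratio of the mt- to the nuclear sum was 3.51 ± 0.474 in Th1, 3.67 ± 0.605 in Th17-1 and 3.98 ± 0.634 in Th17 (SD, n = 3 each), and the groups overlapped.

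**Figure D3:**
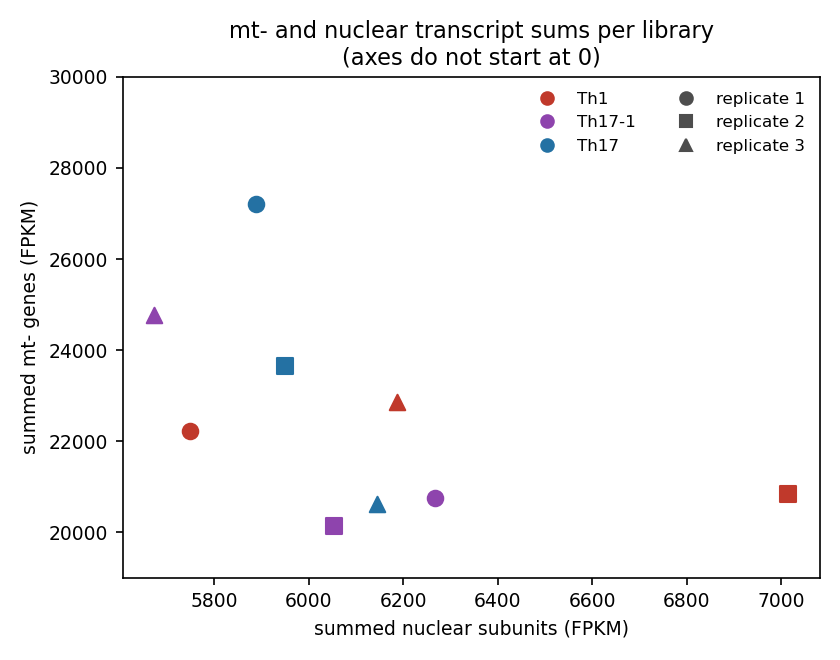
Each point is 1 library, with the summed FPKM of nuclear subunits on the horizontal axis and of mt- genes on the vertical axis, neither starting at 0. The 3 groups overlap on both axes, and Th1 replicate 2 stands to the right at 7015 FPKM.

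Nuclear and mt- genes thus had medians of 0.06 and -0.12 between Th1 and Th17, a distance of 0.18. The equal-sum and median ratio scalings multiply each library by a constant, which moves both sets nearly alike. They therefore could not test this distance (0.17 to 0.18), and quantile scaling gave 0.28. The nuclear median was 0.23 above that of all genes. It was 0.22 to 0.24 above it under the equal-sum and median ratio scalings, which for the same reason could not test it. It was 0.08 above it under quantile scaling. Its own sign was not fixed, at -0.01 with equal sums computed without mt- genes. Th1 replicate 2 was the highest Th1 library for 73 of the 89 nuclear genes tested, or 82.0%, where it was the highest for 45.6% of all genes, and for 3 of 13 mt- genes. Without it the nuclear median was -0.02.

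Within the mitochondrial genome, 3 neighbouring genes varied together. mt-Co2, mt-Atp8 and mt-Atp6 lie side by side on the heavy-strand transcript (chrM:7013-8607, mm10), and mt-Atp8 and mt-Atp6 share 43 bases, so that their reads cannot be fully told apart. In Th17-1 replicate 3 they stood at 2410, 2824 and 3292 FPKM, against 1584, 1704 and 2019 FPKM in replicate 1 and 1416, 1636 and 1912 FPKM in replicate 2. They made up 34.4% of that library's mt- sum and 24.7% to 29.7% in the other 8 libraries. The second highest share was that of Th17 replicate 1, so the pattern did not follow the groups. mt-Nd6, the only gene on the opposite strand, did not stand apart, and it shares 14 bases with mt-Nd5.

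**Figure D4:**
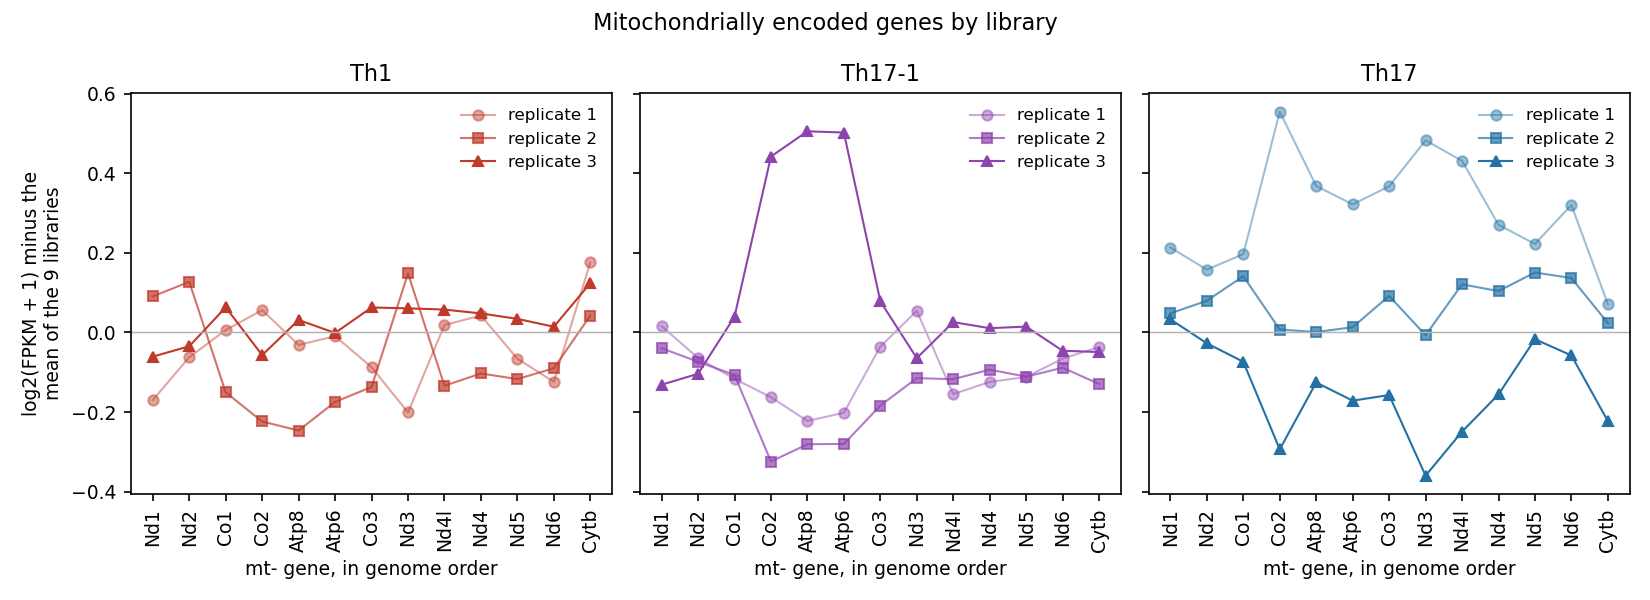
Lines join the 13 mt- genes in genome order on the horizontal axis, with the level in each library on the vertical axis as log2(FPKM + 1) minus the mean of the 9 libraries, and 1 panel per group. Th17-1 replicate 3 rises over mt-Co2, mt-Atp8 and mt-Atp6, and Th17 replicate 1 is the highest Th17 library at all 13 genes.

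The genes that supply, build and regulate the chain were examined through 5 lists outside the symbol rule. They were read in the same fit and are described by counts and medians beside the 28.9% of all genes called lower and the median of -0.17.

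Enzymes of the citric acid cycle and pyruvate entry, which make the NADH and succinate that the chain consumes, included 9 lower and 0 higher of 24 in Th1 against Th17 (median -0.28). Idh2, the NADP-linked mitochondrial isocitrate dehydrogenase, was at 6.28, 6.99 and 4.52 FPKM in Th1, 13.1, 16.2 and 13.6 FPKM in Th17-1 and 19.1, 20.9 and 14.97 FPKM in Th17. Pdk1, a kinase that restrains pyruvate dehydrogenase, was at 8.09, 6.78 and 6.61 FPKM, 22.2, 22.1 and 25.6 FPKM and 24.6, 23.1 and 17.9 FPKM in the same order. For both genes the Th1 libraries lay far below the other 6. Both had a difference of -1.48 (adjusted p = 0.000321 and 0.000105), and both were higher in Th17-1 than in Th1, by 1.15 and 1.58 (adjusted p = 0.00456 and 0.000421), calls kept in every setting. Th17-1 had no call in this list against Th17, where 7 genes were lower and 0 higher at an unadjusted p below 0.05. No share of all genes was computed at that threshold. The count of 9 was 4 under median ratio scaling and 14 without Th1 replicate 2, and 6 without Th1 replicate 1 or 3, or Th17 replicate 1.

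Electron carriers and ubiquinone synthesis included 2 higher and 4 lower of 20 in Th1 against Th17 (median -0.08). Gpd2, of the glycerol phosphate shuttle, and Etfb, which passes electrons from fatty acid oxidation, were higher by 0.69 and 0.58 (adjusted p = 0.028 and 0.00758). The groups overlapped for Gpd2, at 9.43 FPKM in Th1 replicate 1 and 9.48 FPKM in Th17 replicate 3, and not for Etfb. Dhodh, which feeds electrons from pyrimidine synthesis, was lower (-0.94, adjusted p = 0.0209), and so were Coq5 (-0.71, adjusted p = 0.0125) and Cyc1, the cytochrome c1 subunit of complex III that the symbol rule does not reach (-0.52, adjusted p = 0.0313). The calls of Dhodh and Cyc1 were lost without Th1 replicate 1 or 3 or any 1 Th17 replicate, and that of Gpd2 without Th1 replicate 3 or Th17 replicate 1 or 2. Without Th1 replicate 2 the lower count was 9, without Th1 replicate 3 it was 2, and it was 1 without Th1 replicate 1 or without any 1 Th17 replicate. Median ratio scaling turned the median to 0.05 and quantile scaling to 0.10. Cycs, cytochrome c itself, was at 26.8, 41.3 and 27.3 FPKM in Th1 and 25.2, 23.3 and 30.8 FPKM in Th17, with overlap, and was not called (0.24, adjusted p = 0.355). The calls of Coq5, Dhodh and Cyc1 were lost with replicates 1 and 2 only, that of Cyc1 also under median ratio scaling and with no filter, and that of Gpd2 with no filter and with 2 groups fitted. Etfb was also lower in Th17-1 than in Th1 (-0.70, adjusted p = 0.0126), a call lost without Th17-1 replicate 1 or 2.

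Assembly factors outside the rule included 1 higher and 8 lower of 36 in Th1 against Th17 (median -0.22). Among the 8 is Nubpl, which passed the filter only through its Th17 libraries. Cox17, a copper chaperone of complex IV, was higher in Th1 by 0.67 (adjusted p = 0.0153) and in Th17-1 by 0.69 (adjusted p = 0.0306), both against Th17. The first call was lost without Th17 replicate 1 or 2, and the second without either of those or any 1 Th17-1 replicate. Cox10, which makes heme for complex IV, and Acad9, needed for complex I assembly, were lower in Th1, with differences of -0.81 and -0.65 (adjusted p = 0.0055 and 0.00722). The call of Acad9 was lost with replicates 1 and 2 only, and so was that of Cox17 in Th17-1. The 8 lower calls were 3 under either median ratio or quantile scaling and 18 without Th1 replicate 2. They were 3 without Th1 replicate 1, Th1 replicate 3 or Th17 replicate 2, and 5 without Th17 replicate 3.

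Genes that replicate, transcribe and process mitochondrial DNA and its RNA had the largest share of calls. In Th1 against Th17, 16 of 29 were lower and 1 was higher, 58.6% in all, where 42.9% of all genes tested were called. The median was -0.58. Polg, the catalytic subunit of the mitochondrial DNA polymerase, was at 9.14, 7.94 and 7.50 FPKM in Th1, 15.03, 15.5 and 12.2 FPKM in Th17-1 and 18.2, 21.0 and 14.2 FPKM in Th17. The Th1 libraries lay below all others, and the difference was -1.02 (SE 0.15, adjusted p = 0.00111). Its partner Polg2 and the single-strand binding protein Ssbp1 had -0.70 and -0.73 (adjusted p = 0.00329 and 0.0024), and these 3 genes were also higher in Th17-1 than in Th1, by 0.72, 0.54 and 0.50 (adjusted p = 0.019, 0.0341 and 0.0394). Over all genes tested, 5.67% were higher in Th17-1 than in Th1. The count of 3, of 29 in this list, was 11 without Th1 replicate 2, 0 without Th1 replicate 3, Th17-1 replicate 1 or Th17-1 replicate 2, and 1 without Th17 replicate 2. The call of Polg against Th1 was lost without Th1 replicate 3 or Th17-1 replicate 1 or 2, that of Polg2 also without Th17-1 replicate 3 or Th17 replicate 2, and that of Ssbp1 was kept without 2 of the 9 libraries, Th1 replicate 2 and Th17-1 replicate 3. Those of Polg2 and Ssbp1 were also lost with replicates 1 and 2 only, with no filter and with 2 groups fitted. The helicase Twnk, the RNA polymerase Polrmt and the packaging and transcription factor Tfam were lower as well, with differences of -0.98, -0.76 and -0.41 (adjusted p = 0.00828, 0.00443 and 0.0128). The call of Polrmt was kept in all 12 settings, that of Twnk was lost with replicates 1 and 2 only (adjusted p = 0.0518), and that of Tfam was lost there and under median ratio and quantile scaling, with adjusted p up to 0.0634.

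Fastkd1, of a family of mitochondrial RNA-binding proteins, had -1.11 (adjusted p = 0.00106). The 1 higher gene, Hsd17b10, is a subunit of mitochondrial RNase P and also an enzyme of isoleucine breakdown. It was higher in Th1 by 1.01 (adjusted p = 0.00349) and in Th17-1 by 0.96 (adjusted p = 0.011). Across scalings the number lower was 10 to 19, and with replicates 1 and 2 only it was 7. It was 11 without Th1 replicate 1 or 3, 12 without any 1 Th17 replicate and 22 without Th1 replicate 2. The list median minus that of all genes was -0.41. Scalings by a constant per library move both nearly alike and could not test this. It was -0.34 under quantile scaling, -0.21 with a pseudocount of 5, -0.26 without Th1 replicate 1 and -0.52 without Th1 replicate 2. The 13 mt- transcripts, whose template and transcription these proteins serve, had no call in the same comparison.

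Of 11 tested regulators of respiratory gene transcription, 6 were lower and 0 higher in Th1 than in Th17 (median -0.24). Ppargc1b, a coactivator of mitochondrial genes, was at 0.304, 0.621 and 0.557 FPKM in Th1, 0.934, 1.16 and 1.05 FPKM in Th17-1 and 2.23, 2.57 and 1.87 FPKM in Th17. The 3 groups did not overlap, though all levels were low (difference -1.11, adjusted p = 0.000464). Outside Th17 only Th17-1 replicates 2 and 3 reached 1 FPKM. Ppargc1b was thus tested only through the group where it is high, and its calls are not separate support. The related Ppargc1a was listed at 0 in 8 of 9 libraries. Nrf1 and Gabpa, factors whose sites are frequent before respiratory genes, had -0.39 and -0.37 (adjusted p = 0.0139 and 0.00774), Sp1 had -0.54 (adjusted p = 0.000864) and Pprc1, a further coactivator, -0.99 (adjusted p = 0.0459). The call of Pprc1 was lost without Th1 replicate 1 or 3, Th17-1 replicate 1 or 2, or any 1 Th17 replicate. Myc had 0.43 and was not called (adjusted p = 0.138). Under median ratio scaling 2 were lower and 2 higher, and under quantile scaling 3 were lower and 1 higher. The 6 lower calls were 4 without any 1 of Th1 replicate 1, Th1 replicate 3, Th17-1 replicate 2 or the Th17 replicates, and 8 without Th1 replicate 2. The call of Gabpa was lost under median ratio scaling and with replicates 1 and 2 only, that of Nrf1 under median ratio and quantile scaling, and that of Pprc1 in 5 of the 12 settings.

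Against Th17, Th17-1 cells had calls in 3 of these lists. Over all genes tested, 6.43% were higher and 9.49% lower in that comparison. Of the assembly factors outside the rule, 3 of 36 were lower. These were Acad9 (-0.51, adjusted p = 0.0425), Nubpl, which supplies iron-sulfur clusters to complex I (-0.47, adjusted p = 0.0421), and Cox20, a complex IV assembly factor (-0.35, adjusted p = 0.0313). Nubpl was at 0.664, 1.06 and 0.742 FPKM in Th1, 0.819, 0.803 and 0.672 FPKM in Th17-1 and 1.25, 1.67 and 1.42 FPKM in Th17. It passed the filter only through its Th17 libraries, so its calls are not separate support. Of the mitochondrial DNA list, 2 of 29 were lower, Fastkd1 (-0.55, adjusted p = 0.0493) and Mterf1b, of a family of mitochondrial transcription factors (-0.47, adjusted p = 0.0356). Of the regulators, Ppargc1b (-0.65, adjusted p = 0.0133), Sp1 (-0.30, adjusted p = 0.0293) and Gabpa (-0.29, adjusted p = 0.0447) were lower. Gabpb1, the partner of Gabpa in GABP, was higher (0.40, adjusted p = 0.0257). Ppargc1b, like Nubpl, was tested only through its Th17 libraries. Each of these 9 calls was lost without Th17 replicate 1, without Th17 replicate 2 and without Th17-1 replicate 1, and each but that of Mterf1b with replicates 1 and 2 only. All but those of Ppargc1b and Gabpb1 were lost under both median ratio and quantile scaling.

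**Figure D5:**
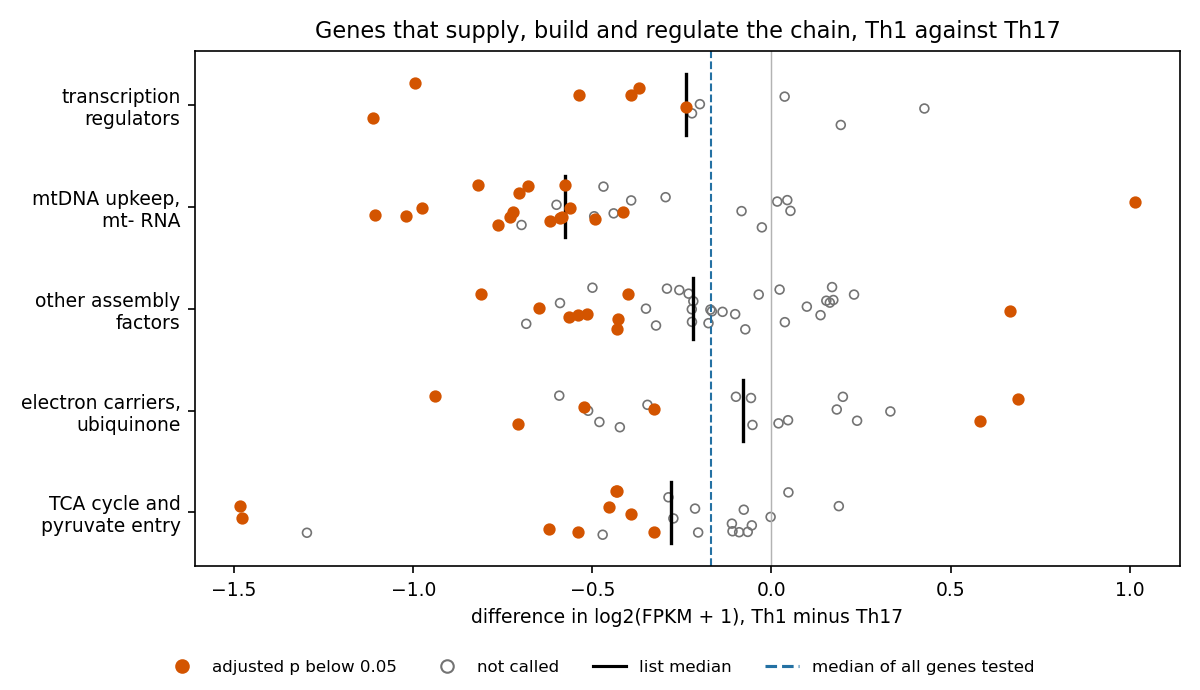
Each point is 1 gene of 5 lists (vertical axis), placed by its difference in log2(FPKM + 1), Th1 minus Th17, on the horizontal axis. Filled points passed limma at an adjusted p below 0.05, and black bars are list medians, of which that of mitochondrial DNA upkeep and mt- RNA genes is the farthest left at -0.58, while the dashed line marks all genes at -0.17.

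The stretches before the start sites of nuclear members are shown for 5 called genes, 2 with the NRF1 letters and 3 without them. Sdha and Ndufaf4, which have them, and Cox7a2l, which does not, were lower in Th1, and Cox5a and Cox7a2 were higher. Sequences are 250 bases before the RefSeq start site (GRCm38.p6, the assembly of mm10), written from 5′ to 3′ on the gene's strand, with capitals for GCGCA and GCGC set 1 base apart, together with that base, which is the core that NRF1 binds. The windows are chr13:74350241-74350490 (minus strand) for Sdha, chr4:24897833-24898082 (plus) for Ndufaf4, chr9:57520982-57521231 (plus) for Cox5a chr9:79759854-79760103 (minus) for Cox7a2 and chr17:83514334-83514583 (minus) for Cox7a2l.
Sdha: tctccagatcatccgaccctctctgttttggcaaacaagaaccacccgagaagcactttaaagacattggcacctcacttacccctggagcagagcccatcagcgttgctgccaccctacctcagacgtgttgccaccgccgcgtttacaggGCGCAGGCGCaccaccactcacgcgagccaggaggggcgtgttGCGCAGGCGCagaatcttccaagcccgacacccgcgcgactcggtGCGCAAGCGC
Ndufaf4: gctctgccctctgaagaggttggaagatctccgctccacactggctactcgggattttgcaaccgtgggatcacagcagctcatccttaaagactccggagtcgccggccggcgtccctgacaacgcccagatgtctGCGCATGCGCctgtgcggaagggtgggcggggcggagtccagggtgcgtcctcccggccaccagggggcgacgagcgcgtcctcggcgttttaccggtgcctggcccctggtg
Cox5a: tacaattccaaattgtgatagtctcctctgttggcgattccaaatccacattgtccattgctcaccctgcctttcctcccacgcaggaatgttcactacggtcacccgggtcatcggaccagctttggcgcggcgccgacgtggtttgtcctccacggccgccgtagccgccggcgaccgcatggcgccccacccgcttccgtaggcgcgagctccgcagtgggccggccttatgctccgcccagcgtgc
Cox7a2: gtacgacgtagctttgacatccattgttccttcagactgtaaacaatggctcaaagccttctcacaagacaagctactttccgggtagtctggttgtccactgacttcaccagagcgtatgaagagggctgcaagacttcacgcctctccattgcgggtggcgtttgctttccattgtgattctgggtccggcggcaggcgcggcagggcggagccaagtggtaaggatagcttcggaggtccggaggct
Cox7a2l: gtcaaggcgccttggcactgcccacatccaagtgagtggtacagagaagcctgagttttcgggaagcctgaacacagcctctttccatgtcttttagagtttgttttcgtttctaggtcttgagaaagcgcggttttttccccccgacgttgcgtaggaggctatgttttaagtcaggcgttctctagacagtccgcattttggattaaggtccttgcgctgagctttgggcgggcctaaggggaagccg
The Sdha window holds the letters 3 times, starting 98, 55 and 10 bases before the start site, and the Ndufaf4 window once, 113 bases before it. Cox5a, Cox7a2 and Cox7a2l do not have them in these windows.

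RefSeq windows were found for 78 of the 97 nuclear members, 83 windows in all, and searched on both strands. These NRF1 letters were in 15 of the 83 windows, or 18.1%, and in 3.74% of the 32851 windows of all genes. The ETS core CCGGAAG, of the kind that GABP binds, was in 19.3% against 6.91%. The GC box GGGCGG was in 39.8% against 32.7%, and CCAAT was in 42.2% against 33.8%. No motif searched contains another, and a match of letters is a description and not a measured binding site. Among windows of members called in Th1 against Th17, 2 of 16 held the NRF1 letters (12.5%), 2 of the 8 windows of lower members and 0 of the 8 of higher members, and among those tested and not called 13 of 63 (20.6%).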

How the data were processed

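Messenger RNA of 9 T cell cultures was measured, grouped and numbered by their titles. The deposited table held the authors' FPKM for 22017 gene symbols, fragment counts scaled for transcript length and library size. Per the submitters' processing notes, HISAT2, DESeq2 and the mm10 build were used, while versions, roles, annotation, strand use and the treatment of reads with several matches were not given in the sources used here. Such reads touch members with processed pseudogenes and the mt- genes, which have nuclear copies, and 43 of the 97 nuclear members overlap another annotated gene, so their levels are uncertain to that extent. Whole reads could not be recovered: the most frequent ratio of 2 libraries was shared by 0.619% to 1.13% of weakly expressed genes, within 0.01 log2 units. Depth is therefore unknown, and no counting interval is given.

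From the table, log2(FPKM + 1) of genes with at least 1 FPKM in 3 or more libraries was fitted with limma 3.58.1 (R 4.3.3), with a mean-variance trend and 1 mean per group over all 9 libraries (6 residual degrees of freedom). All p-values are from this fit, two-sided and adjusted by Benjamini-Hochberg over 10538 genes, with a threshold of 0.05. The fit was tested on simulated data. Figures and sums used Python 3.11.15 and pandas 2.3.3. Gene positions came from the GRCm38 annotation, in which all 110 members were found, and start-site windows from RefSeq (GRCm38.p6).

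Genes are named by a rule: all mt- genes, listed core and isoform subunits, for each class, direction and comparison up to 2 called members by size (averaging 5 FPKM or more, groups not overlapping), up to 2 called genes per direction and comparison of each further list, 6 listed genes (Tfam, Ppargc1a, Ppargc1b, Myc, Cycs and Cyc1), and the 3 genes outside the members and lists that correlate best with the mean nuclear level, leaving out receptor segments and predicted genes. Ndufaf4, Ndufb5, Uqcrc2, Uqcrq, Cox7b, Cox7c, Cox20, Polrmt, Twnk, Ssbp1, Nrf1, Gabpa, Sp1 and Polg2 were named after their values were seen, where the rule does not hold them. The values of 1 called member are not reported here. The members and lists were chosen with earlier results of these data known. Alternatives were other pseudocounts (0.1 and 5), filters (none and 5 FPKM), scalings (equal sums with and without mt- genes, median ratio, quantile), a replicate block, a fit of only 2 groups, robust moderation and leaving out each library. The replicate numbers were checked for pairing by the correlation of same-numbered libraries' deviations from their group means, which ranged from -0.18 to 0.66.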

Additional observations from a re-analysis of the deposited data

How the results depend on the processing

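Beside the values above, the counts of members higher and lower in Th1 than Th17 (8 and 8) were 30 and 2 with median ratio scaling. Lower calls were 14 with equal sums, 15 with equal sums without mt- genes and 3 with only 2 groups fitted. Leaving out 1 library gave 6 to 13 higher (13 without Th1 replicate 1) and 2 to 20 lower (20 without Th1 replicate 2, and 2 to 5 without any 1 of the other Th1 or the Th17 libraries). For Th17-1 against Th17 (1 higher, 2 lower), the higher count was 2 with a pseudocount of 0.1, with either equal-sum scaling or with 2 groups, and 3 with the median ratio. The lower count was 1 with the median ratio and 4 with quantile scaling. Leaving out 1 library gave 1 to 3 higher and 0 to 5 lower. For Th17-1 against Th1 (0 higher, 3 lower), 2 groups gave 1 lower, and leaving out 1 library gave 0 to 2 higher and 0 to 3 lower. The cause of these shifts was not tested.

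The median ratio moved the nuclear medians to 0.23 (Th1 against Th17) and 0.14 (Th17-1 against Th17), and the mt- median of Th1 against Th17 to 0.054, where quantile scaling gave -0.27. Complex IV genes higher in Th1 numbered 11 and 3 under these scalings, and mitochondrial DNA upkeep genes lower in Th1 10 under quantile scaling. Called mt- genes numbered 1 with the median ratio and 3 with quantile scaling for Th1 against Th17, 0 to 2 without 1 library, and 0 to 1 for Th17-1 against Th17. Cox4i1 reversed to -0.016 under quantile scaling.

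Using replicates 1 and 2 only was added after seeing Cd8a, and so were all alternatives of the mitochondrial DNA list. With those replicates, Th1 against Th17 gave 5 higher and 4 lower members, 2 mt- calls, an mt- median of -0.26 and 7 lower genes of the mitochondrial DNA list. Th17-1 gave 0 lower members against either group, and its mt- median against Th17 was -0.30.

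The replicate numbers did not meet the rule for pairing, since same-numbered libraries correlated from -0.18 to 0.66 and not all above 0.1. With the replicate block, 6 members were higher and 7 lower in Th1 than Th17, 1 and 2 in Th17-1 than Th17, and 0 and 2 in Th17-1 than Th1. Of 5085 recomputed values of single genes, 4739 kept direction and side of the threshold, 277 lost and 68 gained a call, and 1 reversed. Limits are 3 libraries a group, unknown depth, FPKM that depend on library composition, and RNA levels that do not measure protein or respiration.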

Other observations

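Over the 9 libraries, the mean log2 level of the nuclear members was most like those of Nme1 (Pearson's r 0.956), a nucleoside diphosphate kinase, Mrpl20 (0.953), a protein of the mitochondrial ribosome, and Psmd9 (0.949), a proteasome assembly chaperone. These are descriptions over 9 libraries that share groups and scaling. Nme1 was at 26.7 to 51.2 FPKM in Th1, 40.6, 37.1 and 27.9 FPKM in Th17-1 and 27.6, 29.5 and 33.8 FPKM in Th17. Its highest library, Th1 replicate 2, was also the one with the highest nuclear sum. The likeness was not recomputed without it.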
